A study of Homo sapiens with 19 samples.

Results

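The albumin family genes ALB, AFP, AFM and GC were followed across HepG2 libraries after knockdown of INO80 or MCRS1 and after inhibition of EZH2. They were chosen by symbol, and all 4 were found among the 34825 gene symbols of each of the 2 expression tables. HepG2 is a human liver cancer cell line that makes many plasma proteins of hepatocytes. INO80 is the ATPase of the INO80 chromatin remodeling complex, MCRS1 is a subunit of that complex, and EPZ-6438 inhibits the methyltransferase EZH2. In the INO80 experiment, cells received the control siRNA NTG, siINO80#1 or siINO80#2, with 3 libraries in each group. In the second experiment, cells were kept in DMSO or in 1 µM EPZ-6438 from 3 days before transfection and received NTG or a single siRNA against MCRS1, so that the control siRNA was measured in 2 DMSO and 3 EPZ-6438 libraries and siMCRS1 in 3 DMSO and 2 EPZ-6438 libraries. All cells were transfected with siRNA at 50 nM and harvested after 72 hours, so that no group was free of transfection. A single control siRNA served both experiments, the comparisons of the INO80 siRNAs share their NTG libraries, and a single cell line was used.

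The 4 genes encode related plasma proteins that the liver secretes. Albumin, the product of ALB, is the main protein of adult plasma and carries fatty acids, hormones and drugs. Alpha-fetoprotein, the product of AFP, is its counterpart in the fetal liver, is silenced in the liver around birth and returns in many liver cancers. Afamin, the product of AFM, binds vitamin E and Wnt proteins, and the product of GC is the vitamin D binding protein of plasma. The liver-enriched factors HNF4A, CEBPA and the FOXA proteins activate genes of the family, whereas ZHX2, ZBTB20 and ZFHX3 are known repressors of AFP.

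All 4 genes lie on chromosome 4 (GRCh38, RefSeq annotation). ALB covered 73404287 to 73421482 on the plus strand. AFP followed at 73436221 to 73456174, 14739 bases beyond the end of ALB, and AFM at 73481745 to 73504001, 25571 bases beyond the end of AFP. GC lay apart on the minus strand at 71741693 to 71805520, with 1598767 bases between it and ALB. In a GENCODE annotation lifted to an earlier genome build, ALB, AFP and AFM overlapped no other annotated gene. GC overlapped a 5S ribosomal RNA pseudogene there, RNA5SP163.

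The 250 bases before the start of ALB, AFP and AFM are given below because AFM was so far below its tandem neighbours ALB and AFP in level. They are from RefSeq (GRCh38.p14), and the promoter table used here matched 3 of the 4 members. Capitals mark the CEBP motif TTGCNNAA, or its reverse complement, and the TATA box TATAAA, each searched on both strands.
ALB, chr4:73404037-73404286, plus strand: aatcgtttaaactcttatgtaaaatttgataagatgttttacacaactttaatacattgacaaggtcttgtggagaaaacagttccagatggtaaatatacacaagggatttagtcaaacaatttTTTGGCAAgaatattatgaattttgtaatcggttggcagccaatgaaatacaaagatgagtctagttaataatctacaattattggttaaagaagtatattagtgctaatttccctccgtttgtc
AFP, chr4:73435971-73436220, plus strand: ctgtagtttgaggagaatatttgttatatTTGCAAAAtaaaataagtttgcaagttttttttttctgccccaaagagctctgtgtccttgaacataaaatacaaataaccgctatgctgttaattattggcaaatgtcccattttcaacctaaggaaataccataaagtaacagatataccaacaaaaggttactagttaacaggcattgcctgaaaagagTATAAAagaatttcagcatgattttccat
AFM, chr4:73481495-73481744, plus strand: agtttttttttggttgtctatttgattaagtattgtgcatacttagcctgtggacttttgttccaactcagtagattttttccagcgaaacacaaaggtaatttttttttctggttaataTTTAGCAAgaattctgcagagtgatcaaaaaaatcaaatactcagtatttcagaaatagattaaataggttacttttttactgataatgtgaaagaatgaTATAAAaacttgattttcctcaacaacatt

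The CEBP motif TTGCNNAA was present in all 3 windows, with its first base on the plus strand 125 bases before the start of ALB, 221 before AFP and 130 before AFM, and 9.13% of 27305 promoter windows of this length held it. TATAAA began 29 bases before the start of AFP and 30 before AFM and was not present in the ALB window, against 11.1% of all windows. The letters CCAAT occurred in ALB and AFP (33.0% of all windows). The forkhead motif TGTTTAC was in none of the 3 (2.98%). These matches are letters in a window. AFM and AFP shared both marked motifs, and whether any of these motifs bears on the levels of the genes was not tested.

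The 9 libraries of the INO80 experiment held 17093574 to 25369547 reads each, and the 10 libraries with MCRS1 siRNA or EPZ-6438 and their controls held 26038505 to 47397233. Levels are normalized counts, which are reads divided by a size factor of the library. Detection was taken to need more than 3 reads, a floor that corresponds to 2.30 to 3.58 of these units for the INO80 libraries and to 2.13 to 4.30 for the others and covers counting error only. Values can be compared within an experiment but not between them, because the tables were normalized separately. INO80 mRNA was 1264 ± 82.2 normalized counts (SD, n = 3) in NTG, 608 ± 31.3 with siINO80#1 and 459.6 ± 21.7 with siINO80#2, which is 48.1% and 36.4% of NTG. MCRS1 mRNA fell to 7.99% of NTG in DMSO and 7.93% in EPZ-6438, and INO80 mRNA also fell there, by 0.27 and 0.35 on the log2 scale (limma adjusted p = 0.0387 and 0.00966).

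All 13 hepatocyte and epithelial markers of a list were above the floor in every library. Of 8 markers of blood, endothelial and stromal cells, 5 (PTPRC, CD68, PECAM1, COL1A1 and LRAT) were above the floor in every library, with CD68 at 579 to 1597 normalized counts and PECAM1 at 138 to 326. VWF, COL3A1 and DCN were at or under the floor in 2, 4 and 0 of the 9 INO80 libraries and in 5, 2 and 4 of the 10 others.

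ALB and AFP were among the genes with the most reads in HepG2. In the INO80 experiment 0.496% to 1.13% of the reads were from ALB, which ranked between 5 and 15 among all genes, and in the second 0.517% to 0.731%. For AFP the shares were 0.492% to 0.690% and 0.431% to 0.820%. Per kilobase of transcript, the mean level of ALB was 1.45 times that of AFP in the INO80 experiment and 1.15 times in the second. AFM was far lower, with 2 to 13 reads in each INO80 library and 6 to 35 in those of the second experiment. GC was lower still, with 0 to 4 and 0 to 12 reads. Thus the level per kilobase of ALB was 25846 times that of AFM and 111456 times that of GC in the first experiment, and 11453 and 39331 times in the second. For AFM and GC these ratios rest on few reads.

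**Figure D1:**
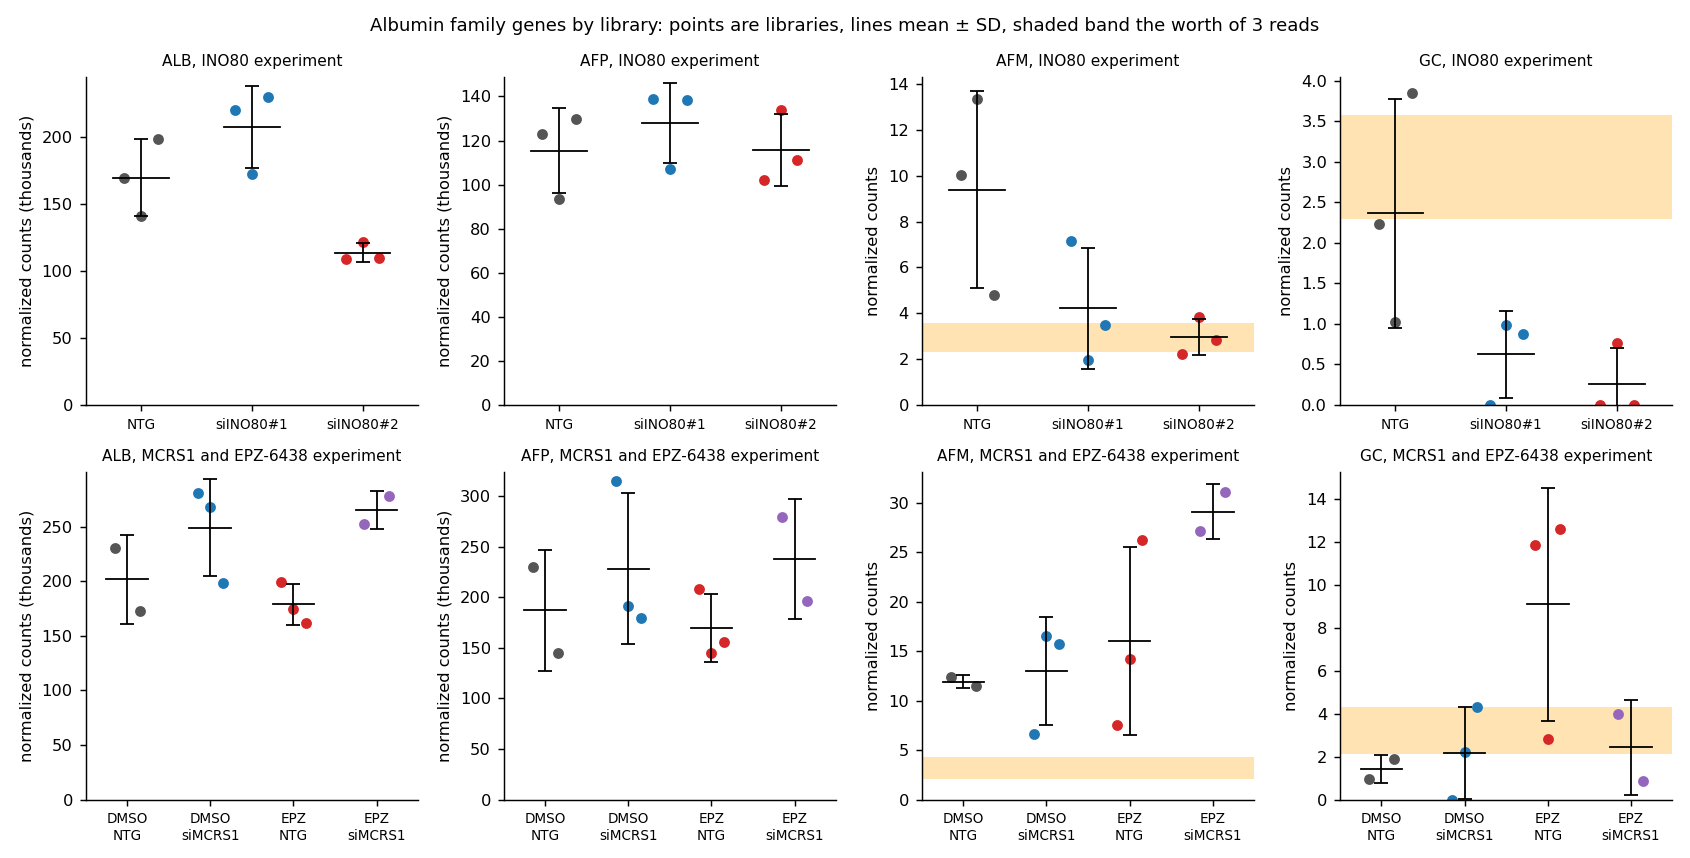
Normalized counts of ALB, AFP, AFM and GC (vertical axes from 0) in each library of both experiments, with the mean ± SD of each group; the shaded band is the worth of 3 reads. The 3 siINO80#2 libraries lie between 109073 and 121826 for ALB, below all 3 NTG libraries, and most GC values lie in or under the band.

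To determine whether the family depends on INO80, each siRNA was compared with NTG. ALB was lower with siINO80#2 and not with siINO80#1, and AFP passed the test with neither. In NTG, ALB was at 169311, 140842 and 198183 normalized counts in replicates A, B and C. With siINO80#1 it was at 219623, 172414 and 229644, which overlapped the NTG range. With siINO80#2 it was at 109073, 121826 and 109582, below every NTG library.

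The group means ran from 207227 ± 30563 with siINO80#1 over 169445 ± 28671 in NTG to 113494 ± 7221 with siINO80#2 (SD, n = 3 each), and siINO80#1 and NTG, neighbours in this order, were not separated by the test given next.

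Differences are log2 fold changes on the scale of log2(normalized count + 1), tested with limma over all genes averaging at least 10 across libraries. A gene was called where its Benjamini-Hochberg adjusted p was under 0.05. ALB fell by 0.57 with siINO80#2 (SE 0.17, adjusted p = 0.0158), to 67.0% of its NTG mean. The difference with siINO80#1 was 0.29 (SE 0.17, adjusted p = 0.197, 95% interval -0.08 to 0.67). Between the siRNAs, ALB fell by 0.86 in siINO80#2 against siINO80#1 (SE 0.17, adjusted p = 0.00589), and 2.28% of the tested genes had a lower value in that comparison. Many genes passed the test in these comparisons: 41.6% of 14034 with siINO80#1 (20.7% higher and 20.8% lower), 55% with siINO80#2 (26.6% higher and 28.4% lower) and 22.1% between the siRNAs. Of the 2 members tested, 0 were called with siINO80#1, 1 with siINO80#2 and 1 between the siRNAs. The call for siINO80#2 was lost without NTG replicate C (a fall by 0.45, adjusted p = 0.0643), and the call between the siRNAs was kept without each library in turn. Fewer cells that express a gene and less RNA per cell cannot be told apart in these bulk libraries.

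Some of the other listed hepatocyte genes were also lower with siINO80#2. Of the 13 listed hepatocyte and epithelial markers, 6 were lower with siINO80#2 and 0 with siINO80#1, against 28.4% and 20.8% of all genes tested, and the median of the list was -0.33 and -0.09 against 0.00002 and 0.0009 for all genes. The 6 were APOH (-1.18), TF (-0.98), APOA1 (-0.84), TTR (-0.59), FGG (-0.46) and RBP4 (-0.43), which encode secreted plasma proteins. These 6 were named after their values were seen. The 7 not called were FGA (-0.33), AHSG (-0.20), SERPINA1 (-0.10), KRT18 (0.07), APOB (0.08), KRT8 (0.09) and FGB (0.18). All of these but the keratins KRT8 and KRT18 also encode plasma proteins. The whole list summed to 474000 to 668710 normalized counts with siINO80#2, 656014 to 780068 with siINO80#1 and 584816 to 690170 in NTG. The 8 markers of other cells summed to 1055 to 1842, 1359 to 1574 and 1483 to 1658 in the same order. Of the 6 tested, 0 were called with siINO80#1 and 3 with siINO80#2, where LRAT of stellate cells (-1.54) and COL1A1 (-0.63) fell and PECAM1 of endothelial cells rose (0.49). The part of either marker list in the ALB difference was not tested. INO80 mRNA itself was lower with siINO80#2 than with siINO80#1 by 0.40 on the log2 scale (SE 0.08, limma adjusted p = 0.00577).

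AFP, the fetal member, was not called in the INO80 experiment. It was at 122958, 93429 and 129855 normalized counts in NTG, at 138699, 107048 and 138266 with siINO80#1 and at 102077, 134003 and 111101 with siINO80#2. These ranges overlapped in every pair of groups. The differences were 0.15 with siINO80#1 (SE 0.18, adjusted p = 0.520, 95% interval -0.24 to 0.54) and 0.01 with siINO80#2 (SE 0.18, adjusted p = 0.970, 95% interval -0.38 to 0.40). Their signs depended on the scaling, since both were negative after quantile normalization (-0.038 and -0.24) and the second also when all libraries were set to equal totals (-0.10).

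Since ALB and AFP are neighbours and are measured in the same library, their ratio removes the scaling of the library. AFP over ALB was 0.726, 0.663 and 0.655 in NTG. It was 0.632, 0.621 and 0.602 with siINO80#1, below all NTG libraries, and 0.936, 1.10 and 1.01 with siINO80#2, above them all. Pooled over both siRNAs, the mean log2 ratio was -0.34 (n = 6) against -0.55 in NTG (n = 3), a difference of 0.22 that did not pass an exact two-sided permutation test (p = 0.452, adjusted p = 0.679 over 6 ratio tests, with 0.0119 the smallest p of this design). Each siRNA was also compared alone, which was chosen after the values were seen. The difference was -0.14 with siINO80#1, 0.58 with siINO80#2 and 0.71 between them, each with an exact two-sided p = 0.1, the smallest that 3 libraries against 3 allow. In these libraries the siRNAs thus lay on opposite sides of NTG in this ratio, with siINO80#1 close to it (0.632 at most against 0.655 at least). This design could not bring either difference to the threshold. How many other gene ratios separate the groups in this way was not counted.

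**Figure D2:**
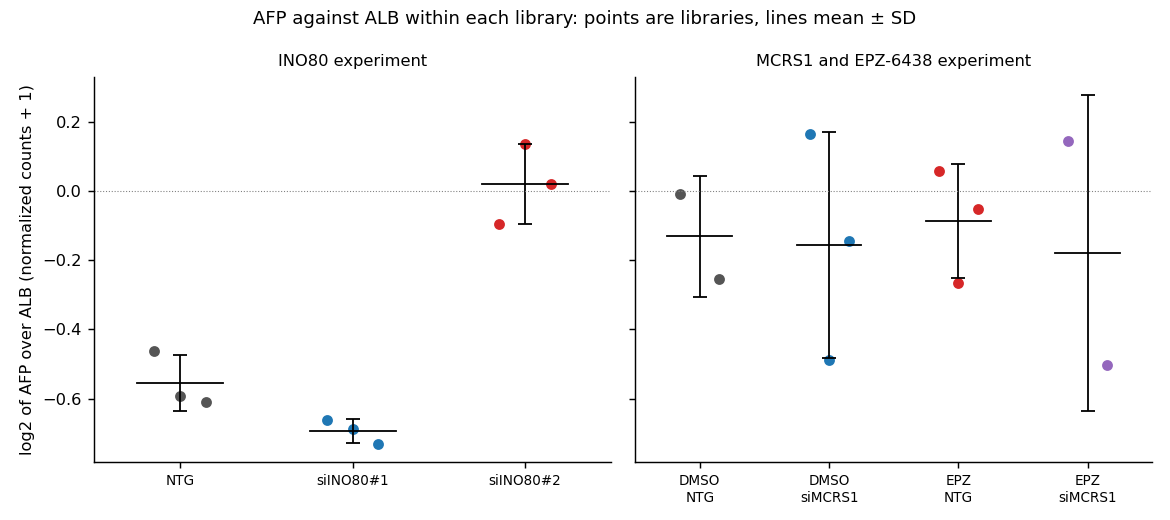
Log2 of AFP over ALB (normalized counts + 1) in each library of the INO80 experiment (left) and of the MCRS1 and EPZ-6438 experiment (right), with the mean ± SD of each group and a dotted line at equal levels. The siINO80#2 libraries lie at -0.10 to 0.14, above the NTG libraries at -0.61 to -0.46, whereas the 4 groups on the right overlap.

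AFM and GC were too low to be tested in the INO80 experiment, with means over the libraries of 5.52 and 1.08 normalized counts. AFM was at 10.0, 13.3 and 4.80 in NTG, at 7.15, 1.98 and 3.50 with siINO80#1 and at 2.24, 3.83 and 2.83 with siINO80#2. The siINO80#2 libraries held 2, 5 and 3 reads, below each NTG library as a level. GC had 2, 1 and 4 reads in NTG, 0, 1 and 1 with siINO80#1 and 0, 1 and 0 with siINO80#2, and 8 of the 9 libraries were at or under the floor. Log2 of AFM over ALB averaged -15.1 with the siRNAs pooled and -14.1 in NTG (difference -1.03, exact two-sided permutation p = 0.0833, adjusted p = 0.25). For GC over ALB the difference was -1.07 (exact p = 0.0476, adjusted p = 0.25), which rested on 3 reads in 6 knockdown libraries and 7 in 3 NTG libraries. Neither ratio passed after adjustment. Without NTG replicate C the AFM difference was -1.52 (exact p = 0.0357). With no filter on low values, GC passed with siINO80#2 (-1.39, limma adjusted p = 0.0325), on 1 read against 7, from which no change of GC is read.

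In the second experiment, MCRS1 knockdown was followed by higher ALB in EPZ-6438. ALB was at 199543, 174557 and 162036 normalized counts in EPZ-6438 with NTG and at 252636 and 277633 with siMCRS1, above all of them. It rose by 0.57 (SE 0.19, limma adjusted p = 0.0269, 95% interval 0.15 to 1.00), to 148% of the mean with NTG. In DMSO, ALB was at 230631 and 172869 with NTG and at 280466, 268140 and 198199 with siMCRS1. These groups overlapped, and the difference of 0.30 did not pass (SE 0.19, adjusted p = 0.220, 95% interval -0.12 to 0.73). In order of their means the groups were EPZ-6438 with siMCRS1 at 265134 ± 17675 (SD, n = 2), DMSO with siMCRS1 at 248935 ± 44369 (n = 3), DMSO with NTG at 201750 ± 40843 (n = 2) and EPZ-6438 with NTG at 178712 ± 19096 (n = 3), and no group passed the test against its neighbour in this order.

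Called with siMCRS1 in DMSO were 47.7% of 14312 genes tested, 23.1% as higher and 24.6% as lower. In EPZ-6438 the shares were 53.7% in all, 26.8% higher and 26.9% lower. Against this, 0 of the 3 members tested were called in DMSO and 1 in EPZ-6438. The call for ALB was lost without EPZ-6438 NTG replicate 2 (0.56, adjusted p = 0.0584) or 3 (0.50, adjusted p = 0.0790) and without EPZ-6438 siMCRS1 replicate A (0.64, adjusted p = 0.0648) or B (0.50, adjusted p = 0.153). It was also lost with libraries set to equal totals, where ALB differed by 0.33 (adjusted p = 0.123) and the median of all genes by -0.23, and with quantile normalization (0.23, adjusted p = 0.261). Relative to the median of all genes, the difference at equal totals was again 0.57. This only undoes that scaling, since the median was 0.0060 before it. After quantile normalization the difference relative to the median was 0.19. Of the hepatocyte and epithelial markers, KRT8 and KRT18, keratins of simple epithelia, were higher (0.55 and 0.73) and 11 were not called, and their list summed to 948807 to 1056380 normalized counts against 852461 to 1032730 with NTG. The 8 markers of other cells summed to 1436 to 1735 against 1283 to 2183, while 1 of them, the collagen gene COL1A1, rose by 2.91 and 1, CD68 of macrophages, fell by 0.93. Their part in the ALB difference was not tested.

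AFP differed in the same direction as ALB with siMCRS1, and neither value passed in the fit without a block. It was at 229431 and 144918 normalized counts in DMSO with NTG and at 314435, 191156 and 179295 with siMCRS1. In EPZ-6438 it was at 207775, 145111 and 156249 with NTG and at 279345 and 196082 with siMCRS1. The ranges overlapped in both treatments. The differences were 0.28 in DMSO (SE 0.29, adjusted p = 0.457) and 0.48 in EPZ-6438 (SE 0.29, adjusted p = 0.182), the first of which turned to -0.085 after quantile normalization, as did that of ALB in DMSO (-0.12). A block by column number, chosen after seeing the data, was fitted without the EPZ-6438 siMCRS1 libraries, whose columns carry letters. In that fit AFP passed with siMCRS1 in DMSO (0.38, limma adjusted p = 0.0210), and siMCRS1 in EPZ-6438 could not be compared. The numbers are not known to pair the libraries. AFP over ALB was 0.995 and 0.838 in DMSO with NTG and 1.12, 0.713 and 0.905 with siMCRS1. In EPZ-6438 it was 1.04, 0.831 and 0.964 with NTG and 1.11 and 0.706 with siMCRS1, and all 4 groups overlapped. Within treatments, log2 of AFP over ALB differed by -0.058 with siMCRS1 (exact two-sided permutation p = 0.74, adjusted p = 0.888, with 0.01 the smallest p of this design).

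EPZ-6438 was compared with DMSO to follow the family under EZH2 inhibition, and no member was called. In NTG cells, ALB differed by -0.17 (SE 0.19, adjusted p = 0.709, 95% interval -0.59 to 0.26) and AFP by -0.12 (SE 0.29, adjusted p = 0.870). In siMCRS1 cells the values were 0.11 for ALB (SE 0.19, adjusted p = 0.937, 95% interval -0.32 to 0.53) and 0.08 for AFP (SE 0.29, adjusted p = 0.971). Of all genes tested, 0.384% were called in NTG cells and 0.0908% in siMCRS1 cells, and 0 of the 3 members. The difference between the siMCRS1 effects in the 2 treatments did not pass for ALB (interaction 0.27, SE 0.27, 95% interval -0.33 to 0.87, limma adjusted p = 1.00), for AFP (0.20, SE 0.41) or for AFM (0.96, SE 0.74), at the same adjusted p. In the interaction, 0% of the tested genes were called by limma (336 at an unadjusted p under 0.05), and edgeR called 0 (344 unadjusted), so that ALB, which passed in EPZ-6438 and not in DMSO, was not shown to differ between the treatments.

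AFM, the afamin gene, was above the floor in all libraries of the second experiment. It was at 12.4 and 11.5 normalized counts in DMSO with NTG and at 6.68, 16.5 and 15.8 with siMCRS1. In EPZ-6438 it was at 7.54, 14.2 and 26.3 with NTG and at 27.2 and 31.1 with siMCRS1, which were the highest libraries of all. AFM differed by 1.20 with EPZ-6438 in siMCRS1 cells (SE 0.52, limma adjusted p = 0.531, unadjusted p = 0.0438) and by 0.98 with siMCRS1 in EPZ-6438 (SE 0.52, adjusted p = 0.139), and neither passed. The latter passed without EPZ-6438 NTG replicate 3 (1.40, adjusted p = 0.0442) and after quantile normalization (1.36, adjusted p = 0.0418). In the other comparisons AFM differed by 0.02 (siMCRS1 in DMSO) and 0.24 (EPZ-6438 in NTG cells), with SE 0.52 for both. Averaged over the treatments, log2 of AFM over ALB differed by 0.06 with siMCRS1 (exact permutation p = 0.9, adjusted p = 0.9). Its means with siMCRS1 and NTG were -14.2 and -13.9 in DMSO and -13.1 and -13.5 in EPZ-6438.

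GC stayed under the filter of the test, with a mean of 4.16 normalized counts and 6 of 10 libraries at or under the floor. It had 1 and 2 reads in DMSO with NTG, 0, 2 and 3 in DMSO with siMCRS1, 11, 4 and 12 in EPZ-6438 with NTG and 5 and 1 in EPZ-6438 with siMCRS1. The EPZ-6438 libraries with NTG were at 11.9, 2.84 and 12.6 normalized counts against 0.957 and 1.91 in DMSO. Replicates 1 and 3 of these were the highest libraries, while replicate 2 lay below 1 library of each siMCRS1 group. With no filter on low values, GC differed by 1.88 with EPZ-6438 in NTG cells (SE 0.80, limma adjusted p = 0.378). Averaged over the treatments, log2 of GC over ALB differed by -1.14 with siMCRS1 (exact permutation p = 0.19, adjusted p = 0.38). Its means with siMCRS1 and NTG were -16.5 and -16.4 in DMSO and -16.4 and -14.3 in EPZ-6438.

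**Figure D3:**
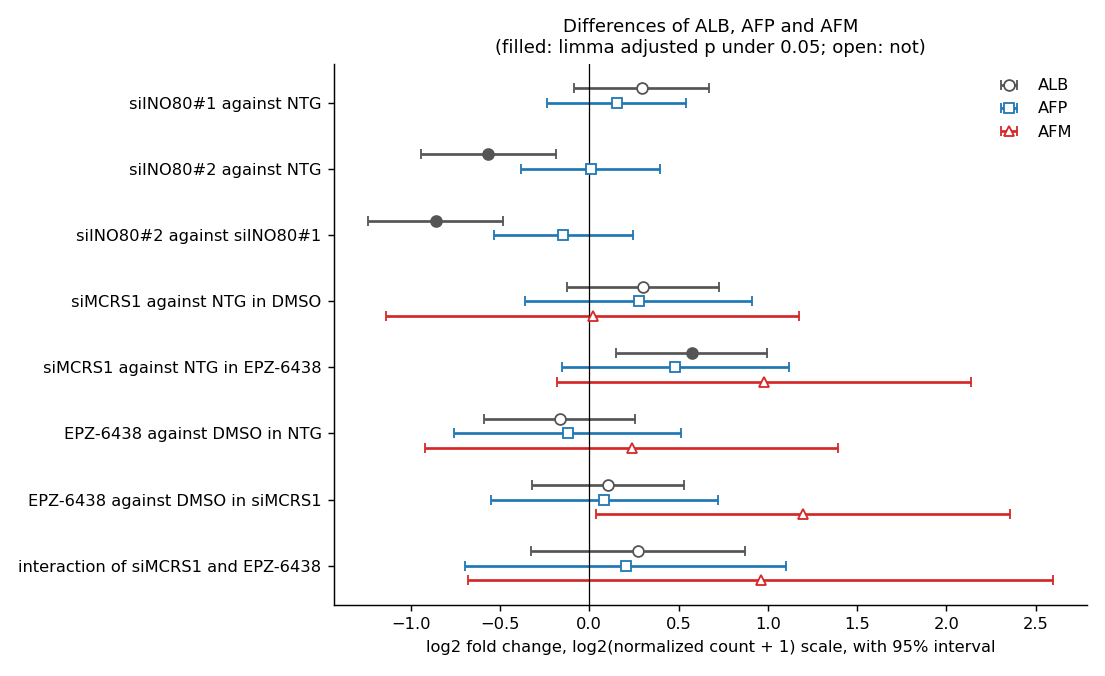
Log2 fold change with 95% interval (horizontal axis) of ALB, AFP and, in the second experiment, AFM in the 8 comparisons; filled points passed the test and open points did not. ALB is filled with siINO80#2 against NTG (-0.57), siINO80#2 against siINO80#1 (-0.86) and siMCRS1 in EPZ-6438 (0.57), and AFP and AFM are open throughout.

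Transcription factors known to act on genes of the family were measured next, in a list of 21 genes that were all tested. With siINO80#1, 5 were higher and 3 lower, and with siINO80#2, 5 were higher and 9 lower (median difference 0.029 and -0.12, against 0.0009 and 0.00002 for all genes tested). The shares of all genes called in these comparisons were 41.6% and 55%. Between the siRNAs, 2 were higher and 8 lower in siINO80#2 (median -0.38 against -0.01), where 22.1% of all genes were called. After siMCRS1, 6 rose and 5 fell in DMSO (median 0.32), and in EPZ-6438 6 rose and 6 fell (median 0.13), where 47.7% and 53.7% of all genes were called. EPZ-6438 was followed by a call for 1, NR5A2, in NTG cells and for 0 in siMCRS1 cells, where 0.384% and 0.0908% of all genes were called.

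Among the activators, HNF4A was lower in all 4 knockdown comparisons and CEBPA in 3. Of these 4, FOXA1 was called only with siINO80#1, where it rose (0.51), and FOXA3 only with siINO80#2, where it fell (-0.37). FOXA1 and FOXA3 were named after their values were seen. HNF4A, a nuclear receptor at the centre of the hepatocyte program, was at 5619 ± 281 normalized counts in NTG, 4133 ± 336 with siINO80#1 and 2759 ± 51.2 with siINO80#2 (SD, n = 3). It fell by 0.45 and 1.02 with the INO80 siRNAs (limma adjusted p = 0.000818 and 1.87e-06) and by 0.55 in each treatment with siMCRS1 (adjusted p = 0.0165 in DMSO and 0.0153 in EPZ-6438). CEBPA, a basic leucine zipper factor that binds the CEBP motif marked in the promoters, fell by 1.87 with siINO80#2 (adjusted p = 0.000355), by 0.64 with siMCRS1 in DMSO and by 0.89 in EPZ-6438, while its value with siINO80#1 was -0.23 (adjusted p = 0.580). Between the siRNAs CEBPA fell by 1.64 in siINO80#2 (adjusted p = 0.00383). In EPZ-6438, ALB was higher with siMCRS1 and HNF4A and CEBPA were lower, and their part in the ALB difference was not tested.

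Of the other listed regulators, NR5A2, a nuclear receptor that binds the AFP promoter, fell by 1.51 and 0.96 with the INO80 siRNAs and by 0.76 and 1.14 with siMCRS1, and rose by 1.42 with EPZ-6438 in NTG cells (limma adjusted p = 0.0298). GATA4 fell in all 4 knockdown comparisons, by 0.38 to 0.95. ONECUT1 fell with siINO80#2 (-1.50) and with siMCRS1 in both treatments (-0.90 and -0.91). FOXA2, a pioneer factor, rose with siMCRS1 in DMSO (0.51) and had values of 0.38 in EPZ-6438 and 0.17 and 0.11 with the INO80 siRNAs that did not pass. GATA6, NFIB and NR2F1 rose with siMCRS1 in both treatments.

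Among the repressors of AFP, ZBTB20 rose in all 4 knockdown comparisons. This zinc finger protein, under which AFP is silenced in the adult liver, was at 127 ± 8.91 normalized counts in NTG, 184 ± 18.6 with siINO80#1 and 283 ± 23.2 with siINO80#2. It rose by 0.53 and 1.16 (limma adjusted p = 0.00443 and 1.69e-05), and after siMCRS1 it rose by 1.71 (DMSO) and 1.76 (EPZ-6438) (adjusted p = 0.000628 and 0.000401). ZFHX3, a homeodomain protein known as the AFP enhancer binding factor ATBF1, rose with both INO80 siRNAs (0.79 and 0.67) and had values of 0.55 and 0.59 with siMCRS1 that did not pass. PROX1, a listed regulator that is not among the repressors named above, rose with both INO80 siRNAs (0.65 and 0.70) and with siMCRS1 in EPZ-6438 (0.59). ZHX2 passed in none of these comparisons (-0.14 to 0.32). AFP was not called in any of them in the fit without a block. With siMCRS1, where ZBTB20 was more than 3 times its NTG level, the 95% intervals of AFP were wide. They ran from -0.36 to 0.91 in DMSO and from -0.15 to 1.12 in EPZ-6438. Whether ZBTB20 bears on the level of AFP was not tested.

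**Figure D4:**
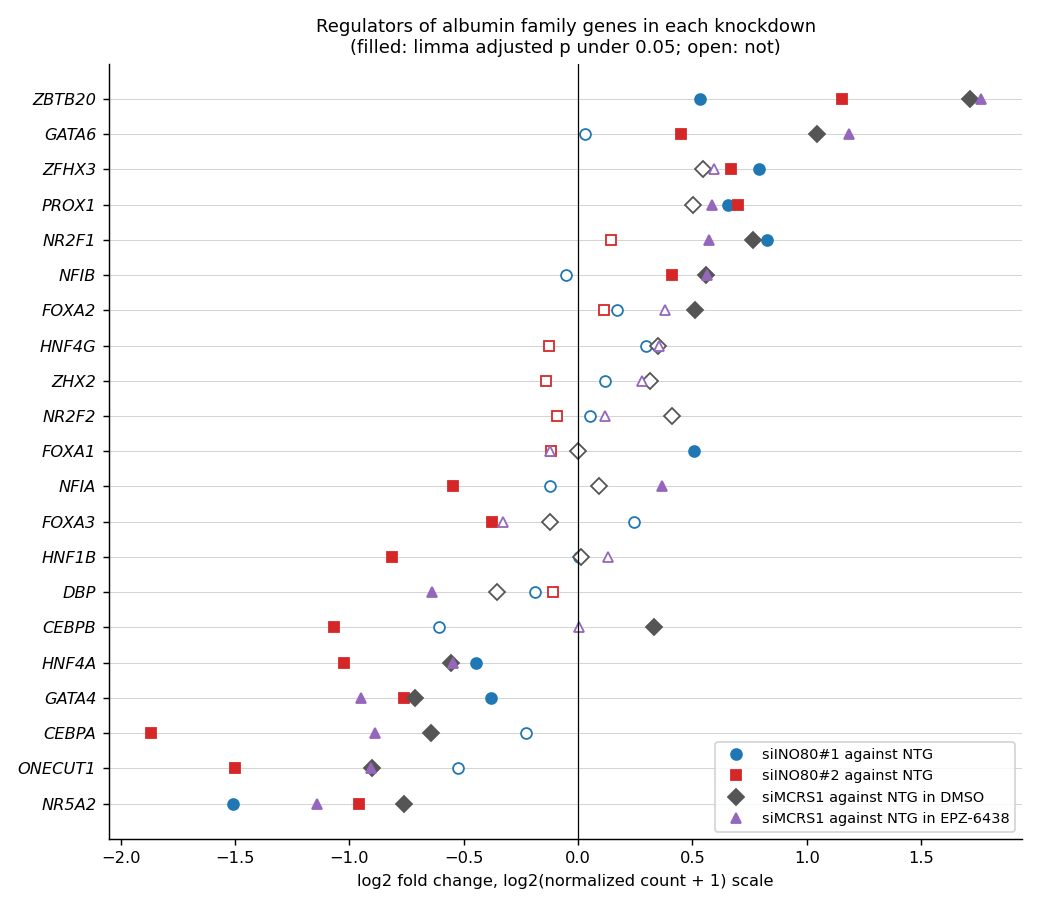
Log2 fold change (horizontal axis) of the 21 regulators, ordered by their mean over the 4 knockdown comparisons; marker shape and colour give the comparison, and filled markers passed the test. ZBTB20 is at the top with filled markers from 0.53 to 1.76, and NR5A2 at the bottom with filled markers from -0.76 to -1.51.

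The genes next to the family on chromosome 4 were followed beside it. Of 20 neighbours in the list, from SLC4A4 beyond GC to BTC beyond AFM, 8 were tested in each experiment. Between GC and ALB, ANKRD17, a broadly expressed ankyrin repeat gene, was at 4473 ± 280.2 normalized counts in NTG, and NPFFR2 and ADAMTS3 were not tested. ANKRD17 is the closest listed gene before ALB, and its differences were 0.11 with each INO80 siRNA and 0.05 and 0.01 with siMCRS1, none of which passed. Of the 8 tested, 1 was higher with siINO80#1 and 2 with siINO80#2, and 0 were lower, against 20.7% and 26.6% of all genes that were higher. In DMSO, siMCRS1 was followed by 2 higher and 2 lower (COX18 at -0.33 and MTHFD2L at -0.52), and in EPZ-6438 by 3 higher, against 23.1% and 26.8% of all genes higher and 24.6% lower in DMSO.

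Of the tested neighbours, RASSF6, CXCL8, MTHFD2L, EREG and AREG lie beyond AFM, and only SLC4A4, COX18 and ANKRD17 lie before ALB. Those that rose were among the genes beyond AFM, where MTHFD2L fell with siMCRS1 in DMSO. Whether position bears on these differences was not tested. AREG, which encodes the EGF receptor ligand amphiregulin, rose by 0.95 and 1.54 with the INO80 siRNAs and by 0.90 and 1.79 with siMCRS1. CXCL8, which encodes the chemokine interleukin-8, rose by 1.41 and 2.03 with siMCRS1, and EREG, which encodes the ligand epiregulin, by 1.33 in EPZ-6438. RASSF6, the first listed gene beyond AFM, rose by 0.97 with siINO80#2, where ALB fell by 0.57. COX18, MTHFD2L, EREG and RASSF6 were named after their values were seen.

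**Figure D5:**
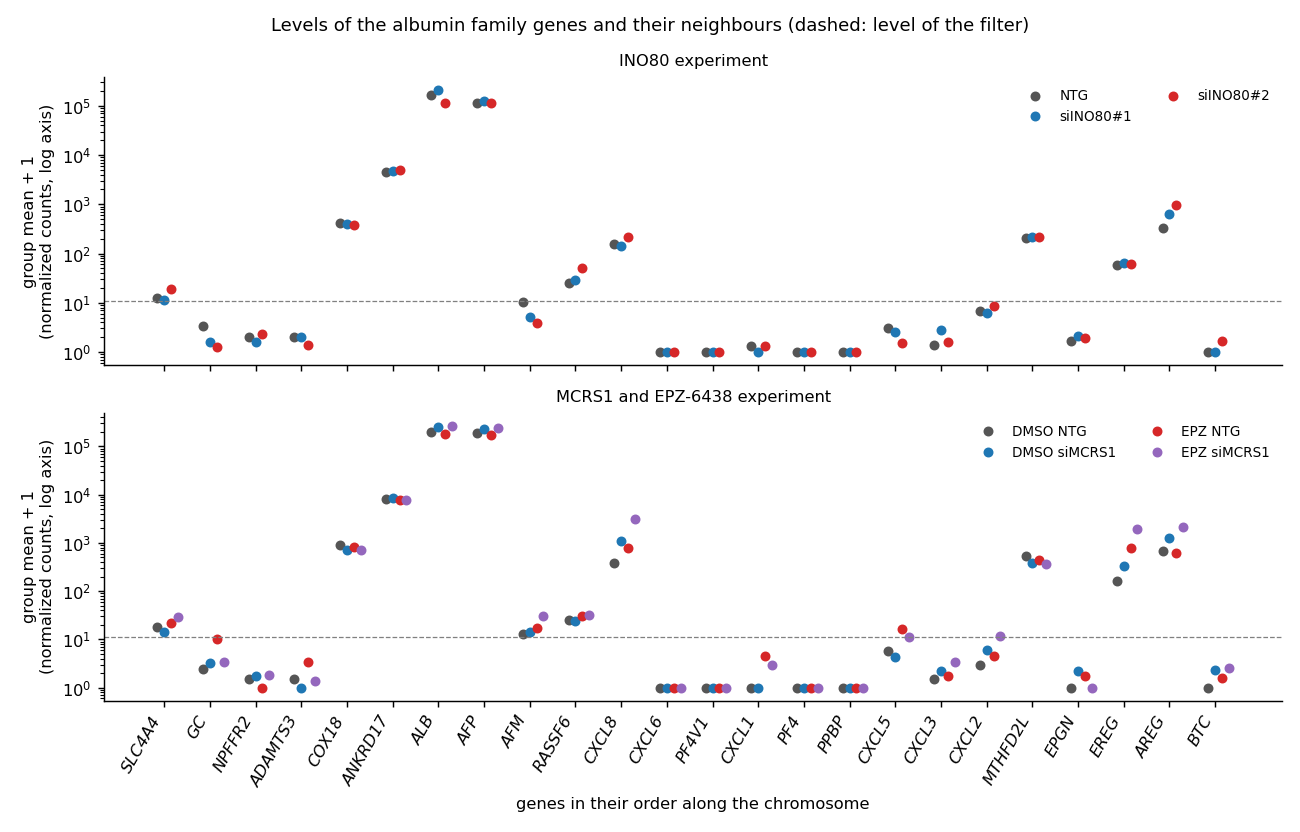
Group mean + 1 in normalized counts (vertical log axes) of the 4 members and 20 neighbours in their order along chromosome 4, in the INO80 experiment (top) and the MCRS1 and EPZ-6438 experiment (bottom); the dashed line is the filter at a mean of 10. Levels are not divided by transcript length, and AFM and GC lie near or under the line on both panels while ALB and AFP lie far above it.

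Genes that handle the family's proteins and their ligands were taken as a further list of 14, of which 13 were tested in each experiment. With siINO80#1, 1 was higher and 4 lower, and with siINO80#2, 2 were higher and 6 lower (median -0.24 and -0.33, against 0.0009 and 0.00002 for all genes, of which 41.6% and 55% were called). In DMSO, 3 rose and 3 fell with siMCRS1, and in EPZ-6438 3 rose and 6 fell (median -0.20 and -0.35, against 0.0017 and 0.0060 for all genes, of which 47.7% and 53.7% were called). CYP24A1, the enzyme that inactivates vitamin D hormone, rose by 1.55 and 1.37 with the INO80 siRNAs and by 2.16 and 2.25 with siMCRS1. TTPA, the tocopherol transfer protein that loads vitamin E for secretion, fell by 0.85 and 0.97 with the INO80 siRNAs and by 1.27 and 1.24 with siMCRS1. AMN, a partner of the albumin receptor cubilin, fell in the same comparisons (-0.97, -1.49, -1.23 and -1.93), and CYP27A1, a vitamin D 25-hydroxylase, fell with both INO80 siRNAs (-0.39 and -1.07). RXRA, the partner of the vitamin D receptor, fell with siMCRS1 (-0.44 and -0.53), where B2M, the light chain of the albumin recycling receptor FcRn, rose (0.45 and 0.54), as did the endocytic adaptor DAB2 (0.50 and 0.65). With the INO80 siRNAs, DAB2 fell with siINO80#1 (-0.43) and was at -0.01 with siINO80#2, while RXRA fell (-0.87) and B2M rose (0.24) with siINO80#2 and neither passed with siINO80#1 (-0.23 and 0.03). For FCGRT, the heavy chain of FcRn, the values were -0.09 and -0.33 with the INO80 siRNAs and -0.32 and -0.50 with siMCRS1, of which the second and the last passed, and FCGRT was named after its values were seen.

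Finally, the genes whose log2 levels followed those of ALB and AFP most closely were found over the 9 and the 10 libraries among 11419 genes with a mean of at least 50 in both tables. These correlations are across libraries of several groups, which share size factors and treatments, and are given as a description. For ALB, the closest were CDC37L1, a relative of the CDC37 cochaperone (Pearson's r = 0.97 and 0.93), XBP1, a transcription factor of the unfolded protein response (0.91 and 0.92), and TMEM39A (0.91 and 0.91). AFP ranked 423 for likeness to ALB (0.60 and 0.77). For AFP, the closest were LDHA, a lactate dehydrogenase subunit (0.72 and 0.72), LRIG1, a regulator of growth factor receptors (0.71 and 0.89), and MSMO1, an enzyme of cholesterol synthesis (0.69 and 0.70), and ALB ranked 28. The differences of XBP1, which was chosen for its likeness to ALB and is given without a test, were -0.55 between siINO80#2 and siINO80#1 and 0.62 with siMCRS1 in EPZ-6438.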

How the data were processed

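Each deposited table holds a normalized signal in which the authors divided the gene counts of a library by its size factor, and the labels name kallisto, DESeq2 and GRCh38 without their roles. In all, 19 libraries came from a stranded mRNA kit, and the use of strand in counting is not given in the sources used here. Division by the step of each library gave whole reads for 100% of the values within 0.01. Groups came from the labels. Nothing says that replicates were separate cultures, so p-values measure the spread between these libraries, which may be technical. Columns of the second experiment were placed by group, and the numbers and letters of its replicates are those of the columns.

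The log2 of each value plus 1 was tested with limma 3.58.1 in R 4.3.3 (lmFit, eBayes with a trend) for the 14034 and 14312 genes that averaged at least 10, fitting each experiment with all its groups and adjusting by Benjamini-Hochberg to a threshold of 0.05. As the signal is not raw counts, edgeR 4.0.16 (quasi-likelihood) on recovered reads was an alternative only. Ratios were compared by exact two-sided permutation tests, within treatments for siMCRS1. Scripts were tested on simulated data. Other alternatives were a pseudocount of 0.1 or 5, no filter or a mean of at least 50, other scalings, fits of the compared groups alone or without a trend, a replicate block, and each library left out. Sequences and coordinates came from RefSeq (GRCh38.p14). Strands of the members, gene overlaps and transcript lengths came from a GENCODE annotation lifted to an earlier genome build. The text names the 4 members, INO80, MCRS1, listed genes called in the same direction with both INO80 siRNAs or with siMCRS1 in both treatments, 8 regulators (ZHX2, ZBTB20, ZFHX3, HNF4A, CEBPA, FOXA2, NR5A2, PROX1) and the 3 genes most like ALB and AFP in the smaller of their correlations over the experiments. The members and lists were chosen with earlier results of these data known, and some regulators are not reported here.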

Additional observations from a re-analysis of the deposited data

Results flagged for a closer look

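ALB responded differently to the 2 INO80 siRNAs, by a test of the difference itself. In siINO80#2 libraries it was lower than in siINO80#1 libraries, with a log2 difference of -0.86 (SE 0.17, limma adjusted p = 0.00589), and all 3 siINO80#2 libraries were below the 6 others. Against NTG, the values were 0.29 with siINO80#1 and -0.57 with siINO80#2. INO80 mRNA was at 48.1% and 36.4% of NTG. Groups of 2 and 3 libraries were too small to be searched for single libraries that stand apart.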

How the results depend on the processing

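Of 487 values of 27 results under alternatives, 434 kept their direction and their side of the threshold. The fall of ALB with siINO80#2 against NTG lost its call without NTG replicate C, and that against siINO80#1 kept its call in every alternative run. With NTG, siINO80#1 and siINO80#2 replicates of the same letter, deviations correlated by 0.103 on average (5 of 9 pairs over 0.1). For different letters the average was -0.052 (2 of 18 pairs over 0.1). The averages are not independent, because deviations from a group mean cancel within the group. The main fit did not take the letters as pairs, and these values do not settle whether they are. With the replicate block the ALB differences were 0.29, -0.57 and -0.86 and those of AFP 0.15, 0.0089 and -0.14, with no call changed. Replicates of 2 or 3 and few reads limit AFM and GC, and the causes of the changes below were not tested. A fit that leaves a group with 1 library assumes that it varies like the others.

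The rise of ALB with siMCRS1 in EPZ-6438 lost its call with no filter (0.57, limma adjusted p = 0.0712), with equal totals (0.33, or 0.34 without the members in the totals) and with quantile normalization (0.23). Equal totals moved the median of all genes by -0.23 in both siMCRS1 comparisons. For AFM with siMCRS1, equal totals gave -0.20 in DMSO (-0.20 without the members), and quantile normalization gave 1.36 in EPZ-6438, which passed. For AFP, quantile normalization gave -0.038 with siINO80#1, -0.24 with siINO80#2 and -0.085 with siMCRS1 in DMSO, where ALB was at -0.12, and equal totals gave -0.10 with siINO80#2 (-0.11 without the members). The column number as a block was chosen after seeing the data and fitted without the EPZ-6438 siMCRS1 libraries. It gave 0.38 for AFP with siMCRS1 in DMSO (limma adjusted p = 0.0210) and -0.085 for AFM. A pseudocount of 5 gave -0.022 for the AFM over ALB ratio with siMCRS1 and -0.29 for GC over ALB with the INO80 siRNAs.

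With each library left out in turn, ALB ranged from -0.69 to -0.45 with siINO80#2, from 0.50 to 0.66 with siMCRS1 in EPZ-6438, and with EPZ-6438 from -0.37 to 0.043 in NTG and -0.050 to 0.20 in siMCRS1 cells. AFP ranged from -0.14 to 0.10 with siINO80#2, from -0.055 to 0.61 with siMCRS1 in DMSO, from -0.45 to 0.21 with EPZ-6438 in NTG and -0.17 to 0.34 in siMCRS1 cells, and from -0.13 to 0.54 in the interaction. AFM ranged from -0.19 to 0.41 with siMCRS1 in DMSO, from 0.56 to 1.40 in EPZ-6438, and from -0.18 to 0.65 with EPZ-6438 in NTG cells. Over ALB, AFM ranged from -1.52 to -0.62 with the INO80 siRNAs and from -0.19 to 0.31 with siMCRS1, AFP from -0.22 to 0.10 with siMCRS1, and GC from -1.27 to -0.88 with the INO80 siRNAs.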

Other observations

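In the second experiment, AFP over ALB was highest in the library whose column is numbered 1 or lettered A in each of the 4 groups. It was at 0.995, 1.12, 1.04 and 1.11 in those libraries and at 0.706 to 0.964 in the 6 others, and AFP itself was also highest there. Whether these libraries share a preparation is not given in the sources used here. EREG, beyond AFM on chromosome 4, had the largest values with EPZ-6438 among the tested neighbours, at 2.37 in NTG cells (limma adjusted p = 0.0562) and 2.76 in siMCRS1 cells (adjusted p = 0.0583), and neither passed.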
